A study of Saccharomyces cerevisiae with 4 samples.

Results

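The genes described here encode the proteins of the large subunit of the cytosolic ribosome of Saccharomyces cerevisiae. They were taken as every probe of the deposited table whose gene symbol is RPL with a number and an optional A or B, together with the stalk protein genes RPP0, RPP1A, RPP1B, RPP2A and RPP2B. This gave 80 genes with 1 probe each, out of 4072 named genes on the arrays, and all 80 were measured on every array. Of the 80, 65 belong to pairs of duplicate genes written A and B, 10 are single-copy genes and 5 are stalk genes.

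The tested strain carried pAG305GPD-AAE13 and the control strain carried pAG305GPD-ccdB. The AAE13 protein comes from plants and joins malonate to coenzyme A, and ccdB is the cassette of the vector without an insert. Both plasmids are integrating LEU2 vectors with the strong constitutive GPD promoter, and the labels name neither the host strain nor the number of independent transformants behind each group. Both strains grew in drop-out medium at 30 °C, both were given malonate (0.2 mM) once the optical density reached 0.1, and both were harvested in mid-log phase. Each of 4 two-colour arrays set 1 of 4 AAE13 cultures against 1 of 4 ccdB cultures, with AAE13 labelled with the Cy5-type dye on arrays 1 and 3 and with the Cy3-type dye on arrays 2 and 4. The question of the design was which transcripts differ between these strains when both are fed malonate.

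Ribosomal protein genes are transcribed at very high rates in growing yeast and are known to be regulated together, through the factors Rap1, Fhl1, Ifh1 and Sfp1 and through nutrient signalling. Most exist as duplicate genes left by an ancient genome duplication, and the copies of a pair encode identical or nearly identical proteins. The large subunit forms peptide bonds, guides the growing chain through an exit tunnel and carries a flexible stalk of acidic proteins that recruits translation factors.

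All values are log2 ratios of AAE13 over ccdB, each array centred on its median over all probes, so that lower means lower than the typical gene of the array. The direction is likely but not settled: it rests on which strain the title of the series puts first, while the sample titles put ccdB first on arrays 2 and 4, and base 2 was inferred from the range of the values. The RNA of the 2 channels was balanced by mass, so a lower ratio is a smaller share of the labelled cDNA. It does not give the amount of a transcript per cell. Correlations between arrays over all probes lay between 0.43 and 0.74. Array medians as deposited were 0.431, 0.765, -0.174 and 1.41 on arrays 1 to 4, and without centring the median of all named genes stood at 0.58. No named probe is for AAE13, so the arrays do not check the strain labels. No spot intensities were used here, so signal over background is unknown, and 4 arrays limit the precision of every value.

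Most large subunit transcripts were on the low side of the typical gene in the AAE13 strain. Of the 80 genes, 19 fell, 1 rose and 60 did not pass in limma, where the threshold was an adjusted p below 0.05 over all named genes. Those that fell are 23.8% of the members, against 11.8% of all named genes called lower, and the 1 that rose stands against 13% of all named genes called higher. The median of the 80 mean ratios was -0.63, against -0.02 for all named genes. The mean lay below 0 for 77 of the 80 genes, and for 2116 of all 4072 named genes. With the arrays not centred, 0 fell and 1 rose, the members' median was -0.02 and that of all named genes 0.58, with 1.35% of all genes called lower and 18.3% called higher. Array by array, the uncentred median of the members was -0.46, -0.60, -0.28 and 1.15 on arrays 1 to 4. That of all named genes was 0.39, 0.78, -0.22 and 1.44. With the arrays not centred, 2 genes were lower and 3 higher at an unadjusted p under 0.05. With the ratios read as Cy5 over Cy3 on every array, limma called 0 of the 80, with 0 also at an unadjusted p under 0.05, and 0% of all genes, and the median was 0.14. With a dye term 13 fell, or 16.25% of the members, near the 15.1% of all genes called lower. In that fit 1 rose (1.25%, beside 16.2% of all genes). Without moderation of the variances 0 were called lower (1.23% of all genes; 7 at an unadjusted p under 0.05) and 0 higher (2.28%; 1 unadjusted).

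The low values came mainly from arrays 1 and 2. The median of the 80 genes was -0.89, -1.37, -0.11 and -0.26 on arrays 1 to 4, where all named genes had -0.05, 0.02, -0.04 and 0.03. On array 1, 76 of the 80 genes were below 0, and on array 2, 78 were; on array 3 the number was 45 and on array 4 it was 63. For 71 of the 80 genes both values of arrays 1 and 2 were below both values of arrays 3 and 4, as they were for 21.9% of all named genes. Arrays 1 and 2 are of opposite dye orientation, as are arrays 3 and 4. Within arrays 1 and 2, 69 of the 80 genes were lower on the array with AAE13 in the Cy3-type dye. Within arrays 3 and 4, 50 of the 80 were. The share of all named genes with these orders was not counted. The part of the dyes in these values was not tested beyond the dye term. Array 2 gave the lowest of the 4 values for 65 of the 80 genes, which was likewise not counted over all named genes. A dye term in limma was called for 0 of the 80 genes and for 0% of all genes. At an unadjusted p under 0.05 it was 0 of the 80 genes and 721 of all 4072 named genes (17.7%).

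The number of genes called depended on which arrays were in the fit. Without array 1, limma called 3 genes lower, namely RPL15A, RPL31B and RPL33B. That is 3.75% of the members, below the 6.39% of all genes. Without array 2 it called 8 (10% of the members, near the 8.99% of all genes). Without array 4 it called 7 (8.75%, beside 4.62%). Without array 3, the array on which the members lay closest to the typical gene, it called 40 lower (50%, beside 13.2%). The 1 rise was called only without array 3 (12.5% of all genes called higher), and not without array 1 (8.89%), array 2 (10.4%) or array 4 (5.9%). The median of the members stayed negative throughout, between -0.84 and -0.40. On all 4 arrays 37 of the 80 genes were below 0, or 46.3%, where 23.5% of all named genes were.

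**Figure D1:**
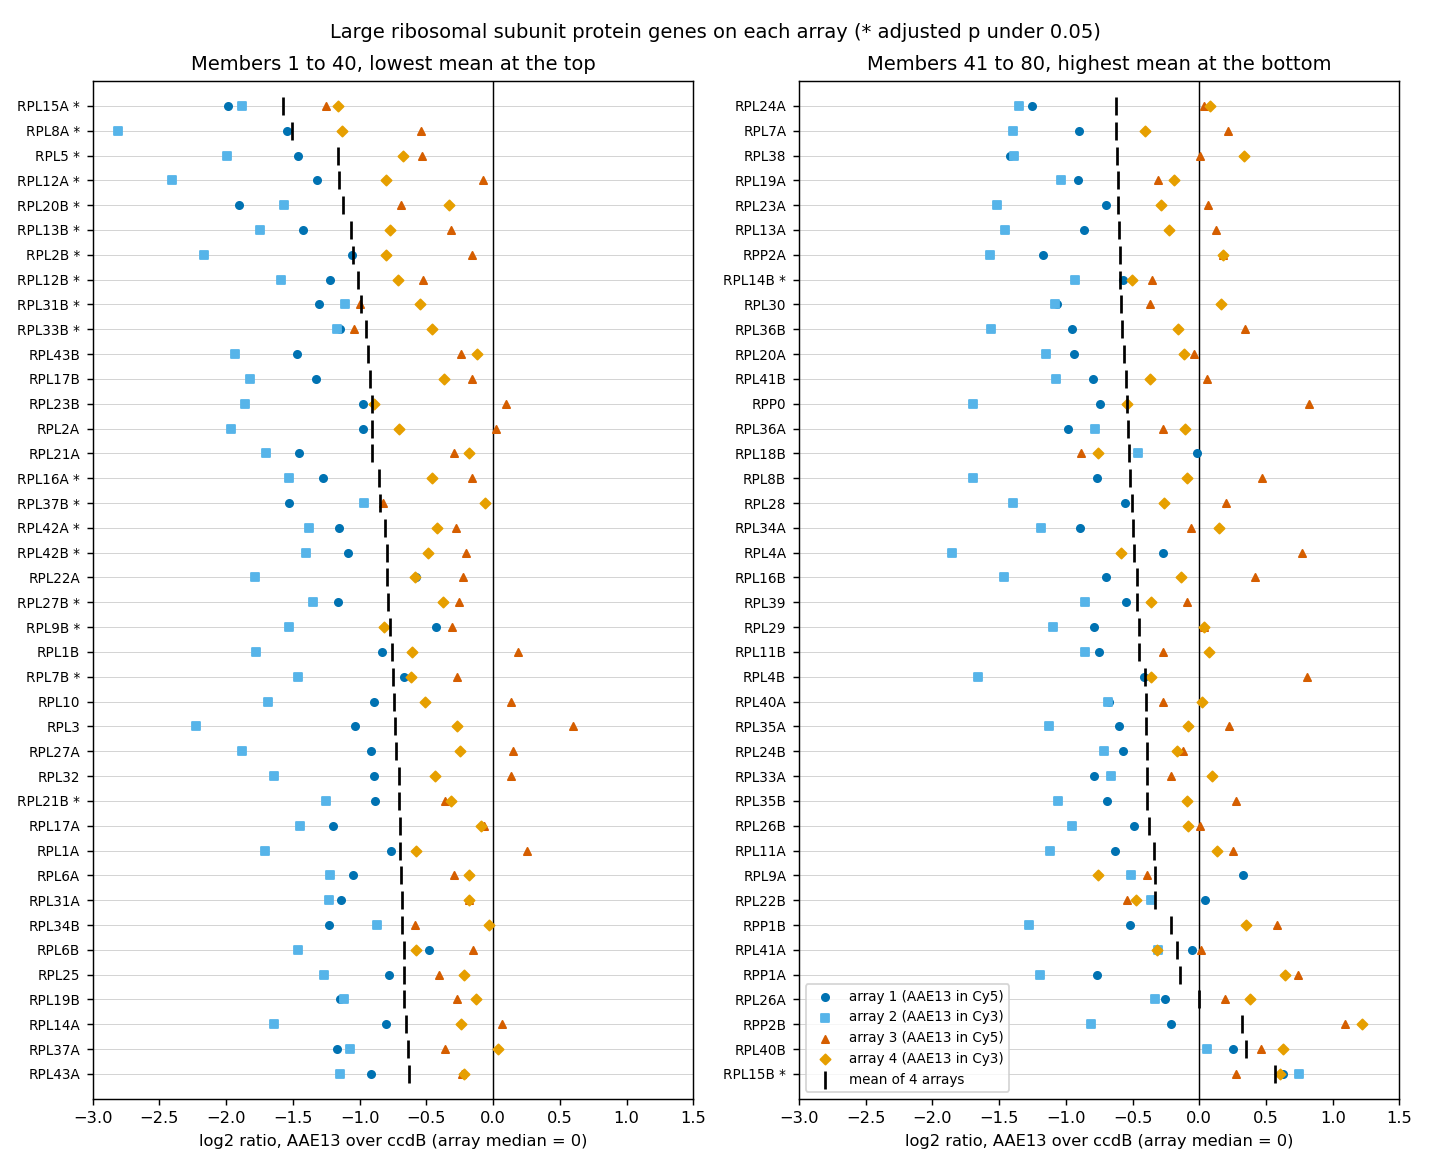
Log2 ratio of AAE13 over ccdB for each of the 80 large subunit genes, with 1 marker per array, a black bar at the mean of 4 arrays, and an asterisk where limma's adjusted p is under 0.05. Values are centred on each array's median. The circles and squares of arrays 1 and 2 lie left of the triangles and diamonds of arrays 3 and 4 for 71 genes, RPL15A is at the top with -1.57 and RPL15B at the bottom with 0.56; with the arrays not centred the members' median is -0.02.

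RPL15A, which encodes a protein of the core of the subunit, had the lowest mean in the AAE13 over ccdB reading; read as Cy5 over Cy3 its mean was -0.050 and was not the lowest. Its ratios were -1.99, -1.88, -1.25 and -1.16 on arrays 1 to 4. All 4 are more than 1 below the typical gene, and the mean of -1.57 ± 0.42 (SD, n = 4) corresponds to a 2.97-fold lower ratio, with a limma adjusted p of 0.00228. RPL8A followed at -1.55, -2.81, -0.54 and -1.13, a mean of -1.51 ± 0.96 (SD, n = 4; limma adjusted p = 0.0181). Array 2 was the lowest for RPL8A and array 3 the highest, and the call was lost without array 1 (adjusted p = 0.051) or array 4 (0.0623). With the arrays not centred, RPL15A was at -0.96 and RPL8A at -0.90, and neither passed in limma (adjusted p = 0.0921 and 0.117).

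Of the 80 genes, 8 (10%) were at least 2-fold lower on average, and all 8 passed. How many of all named genes were this low was not counted. RPL20B was at -1.90, -1.57, -0.69 and -0.33 on arrays 1 to 4, lowest on array 1 (mean -1.12 ± 0.74; SD, n = 4; limma adjusted p = 0.0254). RPL20B lost the call without array 1 (mean -0.86, limma adjusted p = 0.0857). Besides RPL15A and RPL8A the 8 were RPL5, RPL12A, RPL20B, RPL13B, RPL2B and RPL12B, with means between -1.16 and -1.01. RPL13B lost the call without array 1 or array 4 (limma adjusted p = 0.0811 and 0.0684). The 19 genes that fell had means from -1.57 to -0.59 and limma adjusted p-values from 0.00228 to 0.0473, and each was below 0 on all 4 arrays. At an adjusted p under 0.01, 2 remained, RPL15A and RPL31B, where 3.83% of all genes were called lower, and 0 of the 80 were called higher, where 5.75% were. Another 18 of the 80 genes (22.5%) had limma adjusted p-values between 0.05 and 0.1 and did not pass, a band not counted over all named genes.

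RPL2, RPL3 and RPL10 line the catalytic centre and the path of the transfer RNAs. RPL2B fell, at -1.06, -2.16, -0.16 and -0.80 on arrays 1 to 4 (mean -1.05 ± 0.84; SD, n = 4; limma adjusted p = 0.0437), and lost the call without array 1, 2 or 4 (adjusted p from 0.082 to 0.112). Its copy RPL2A was at -0.91 ± 0.82 and did not pass. RPL3 had -1.03, -2.23, 0.60 and -0.27, so that arrays 2 and 3 lay on opposite sides of the typical gene. With all arrays RPL3 (mean -0.73 ± 1.20; SD, n = 4; limma adjusted p = 0.219) and RPL10 (-0.74 ± 0.76; 0.097) did not pass. Without array 3 each of them passed, RPL3 at 0.0324 and RPL10 at 0.0216 (limma adjusted p).

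The proteins around the exit of the peptide tunnel, where chaperones, modifying enzymes and the signal recognition particle dock, are encoded by RPL17A and RPL17B, RPL19A and RPL19B, RPL25, RPL26A and RPL26B, RPL31A and RPL31B, RPL35A and RPL35B, and RPL39. Of these 12 genes 1 fell, RPL31B, a share below the 11.8% of all named genes called lower, 11 did not pass, and the median of their means was -0.64. RPL31B had -1.31, -1.11, -0.99 and -0.55 on arrays 1 to 4 (mean -0.99 ± 0.32; SD, n = 4; limma adjusted p = 0.00889), one of the steadier values in the set. RPL25, a docking protein for the signal recognition particle, averaged -0.67 ± 0.46 (SD, n = 4; limma adjusted p = 0.0561), and it passed with the arrays scaled to a common spread (0.048). RPL26A was the member closest to the typical gene on average, with -0.25 and -0.33 on arrays 1 and 2 and 0.19 and 0.38 on arrays 3 and 4.

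RPL5 and RPL11 carry the small 5S ribosomal RNA into the subunit. RPL5 is a single-copy gene and was the only one of the 10 single-copy genes that fell, at -1.46, -1.99, -0.53 and -0.67 on arrays 1 to 4 (mean -1.16 ± 0.69; SD, n = 4; limma adjusted p = 0.0188; 0.0664 without array 1). RPL11A and RPL11B, at means of -0.34 and -0.45, did not pass. The other single-copy genes were RPL32 at -0.71, RPL38 at -0.62, RPL30 at -0.59, RPL28 at -0.50, RPL39 at -0.46 and RPL29 at -0.45, besides RPL10, RPL3 and RPL25. RPL28 encodes the protein altered in cycloheximide-resistant strains, and RPL30 represses the splicing of its own transcript. None of these single-copy genes other than RPL5 passed with all arrays. RPL32 passed without array 3 (limma adjusted p = 0.0259), but not without array 1, 2 or 4.

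Single-copy and duplicated genes lay close together. The median of the 10 single-copy genes was -0.64, and that of the 65 genes of pairs was -0.65. On arrays 1 to 4 the medians were -0.89, -1.39, 0.02 and -0.27 for the single-copy genes and -0.90, -1.35, -0.16 and -0.29 for the genes of pairs, so that the single-copy median was the higher one on arrays 1, 3 and 4 and the lower one on array 2. Of the single-copy genes 1 fell (10%, beside 11.8% of all named genes) and 0 rose. Of the genes of pairs 18 fell and 1 rose, 13 of 33 B copies (39.4%) and 5 of 32 A copies (15.6%, near the 11.8% of all named genes) having fallen, while the medians of the B and A copies were -0.68 and -0.63. Without array 3 the falls numbered 18 among B copies (54.5%) and 17 among A copies (53.1%), where 13.2% of all named genes were called lower. Whether these classes differ was not tested.

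The 5 stalk genes shared the low values of arrays 1 and 2, with higher values on arrays 3 and 4, and whether they differ from the other members was not tested. RPP0 encodes the base on which the acidic proteins of RPP1A, RPP1B, RPP2A and RPP2B are mounted. The median of these 5 genes was -0.75 and -1.27 on arrays 1 and 2, near the other members, and 0.74 and 0.35 on arrays 3 and 4, where the genes of pairs had -0.16 and -0.29. All 5 were below 0 on arrays 1 and 2 and all 5 above 0 on array 3, and 4 of 5 were above 0 on array 4. Their means lay between -0.60 and 0.32, and 0 of the 5 passed.

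RPP2B had the widest course of the acidic genes toward high values, at -0.21 and -0.81 on arrays 1 and 2 and 1.09 and 1.22 on arrays 3 and 4. RPP1A was at -0.77, -1.20, 0.74 and 0.64, and RPP1B at -0.52, -1.27, 0.59 and 0.35 on arrays 1 to 4. RPP2A was at -1.17, -1.57, 0.18 and 0.18. For all 4 acidic genes the values of arrays 1 and 2 lay below the typical gene and those of arrays 3 and 4 above it. This pattern was not limited to the stalk. It was found in 9 members (11.25%), among them RPL24A, RPL38, RPL29, RPL11A and RPL26A, and in 3.56% of all named genes. RPP0 was at -0.75, -1.70 and 0.82 on arrays 1 to 3 and back at -0.54 on array 4, and it passed in limma without array 3 (mean -0.99; adjusted p = 0.0259; with all arrays, 0.305). It did not pass without array 1, 2 or 4. RPL12A and RPL12B, whose protein sits next to the stalk base, did not share the positive values and both fell, with means of -1.15 ± 0.98 and -1.01 ± 0.48 (SD, n = 4; limma adjusted p = 0.047 and 0.0148). RPL12A lost the call without array 1, 2 or 4 (adjusted p from 0.0819 to 0.122) or with a dye term (0.0614), and RPL12B without array 1 (adjusted p = 0.0587).

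**Figure D2:**
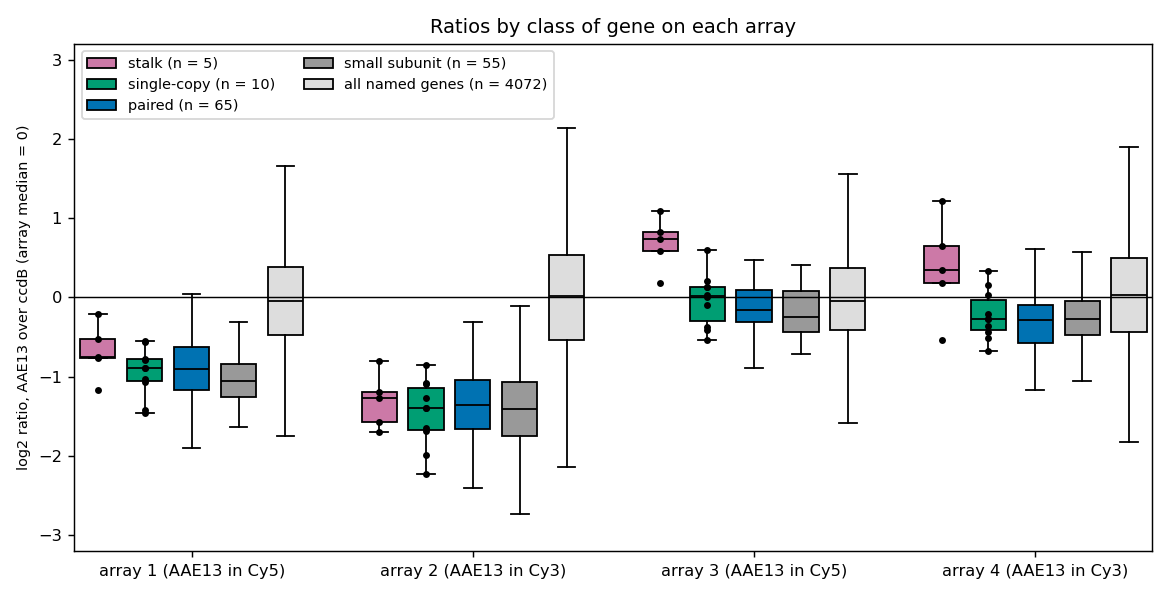
Log2 ratios of AAE13 over ccdB on each array for the stalk genes, the single-copy genes and the genes of pairs of the large subunit, then for the small subunit genes and all named genes. Boxes span the quartiles with the median inside, whiskers reach 1.5 box lengths, outliers are not drawn, and black points are single genes. The stalk median is -1.27 on array 2 and 0.74 on array 3, while the genes of pairs have -1.35 and -0.16; with the arrays not centred the median of the stalk means is 0.39 in place of -0.22.

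Comparing the A copy with the B copy of a pair removes what both copies share on an array, the centring included. The difference, the ratio of the A copy minus that of the B copy, was formed for 34 large subunit pairs, including RPP1 and RPP2, whose copies are related but distinct proteins. It was tested in limma with all 60 pairs of genes on the arrays whose symbols differ only in a final A or B. Of the 34 pairs 6 were called, or 17.6%, against 13.3% of all 60 pairs, a group that contains them (8.33% with the A copy lower and 5% with the A copy higher). The A copy had the lower ratio in RPL15, RPL8, RPP2 and RPL40, and the higher ratio in RPL13 and RPL33. Of the 34 pairs 12 had 1 sign on all 4 arrays, where 38.3% of all 60 pairs did. Differences within pairs varied less over the arrays than the genes themselves, with a median SD of 0.28 against 0.59.

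RPL15 was the pair furthest apart. RPL15A was lower on every array, while RPL15B had 0.63, 0.75, 0.28 and 0.61 on arrays 1 to 4 and was the member that rose (mean 0.56 ± 0.20; SD, n = 4; 1.48-fold; limma adjusted p = 0.0452). RPL15B lost its call without array 1, 2 or 4 (adjusted p from 0.139 to 0.147) and kept it with the arrays not centred, at 1.17 (0.0361). The difference of the copies was -2.61, -2.63, -1.53 and -1.77 on arrays 1 to 4, a mean of -2.14 ± 0.57 (SD, n = 4; limma adjusted p = 0.00356 over 60 pairs).

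For RPL8 the difference was -0.78, -1.12, -1.02 and -1.03 on arrays 1 to 4, with a mean of -0.99 ± 0.14 (SD, n = 4; limma adjusted p = 0.00315), although the copies themselves had SDs of 0.96 and 0.93. RPL8B alone, at -0.52, did not pass. RPP2A against RPP2B differed by -0.96, -0.76, -0.92 and -1.04, a mean of -0.92 ± 0.12 (SD, n = 4; adjusted p = 0.00315, limma). Both copies of this pair were below the typical gene on arrays 1 and 2 and above it on arrays 3 and 4, apart by a similar amount each time.

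RPL40A and RPL40B encode a ribosomal protein fused to ubiquitin, the small protein that marks others for degradation. RPL40B was above the typical gene on every array, at 0.25, 0.06, 0.46 and 0.63, and did not pass by itself (mean 0.35 ± 0.25; SD, n = 4; limma adjusted p = 0.17). RPL40A averaged -0.40 ± 0.34 (SD, n = 4). Their difference was -0.93, -0.74, -0.73 and -0.61 on arrays 1 to 4, a mean of -0.75 ± 0.13 (SD, n = 4; limma adjusted p = 0.00356). RPL15B and RPL40B were the members above 0 on all 4 arrays, 2.5% of the 80, where 22.8% of all named genes were.

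In RPL13 and RPL33 the B copy was the lower one. RPL13B averaged -1.06 and fell, RPL13A averaged -0.61 and did not pass, and the difference was 0.56, 0.29, 0.44 and 0.54 on arrays 1 to 4 (mean 0.46 ± 0.12; SD, n = 4; limma adjusted p = 0.0213). RPL33B averaged -0.95 and fell, RPL33A averaged -0.39 and did not pass, and the difference was 0.35, 0.51, 0.83 and 0.56 (mean 0.56 ± 0.20; SD, n = 4; adjusted p = 0.0213, limma). Both differences were positive on every array but were close to the threshold. That of RPL13 was not called without array 1, 3 or 4 (adjusted p from 0.0766 to 0.114), nor that of RPL33 without array 2, 3 or 4 (0.0589 to 0.112). Those of RPL15, RPL8, RPP2 and RPL40 were called without any 1 array, at limma adjusted p-values up to 0.0302. With the ratios read as Cy5 over Cy3, limma called 0 of the 34 pairs, with 1 at an unadjusted p under 0.05, and 0% of all 60. Leaving out array 1, 2 or 3 left 11.7% of all 60 pairs called, and leaving out array 4 left 10%. With a dye term 7 of the 34 were called, against 16.7% of all 60.

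**Figure D3:**
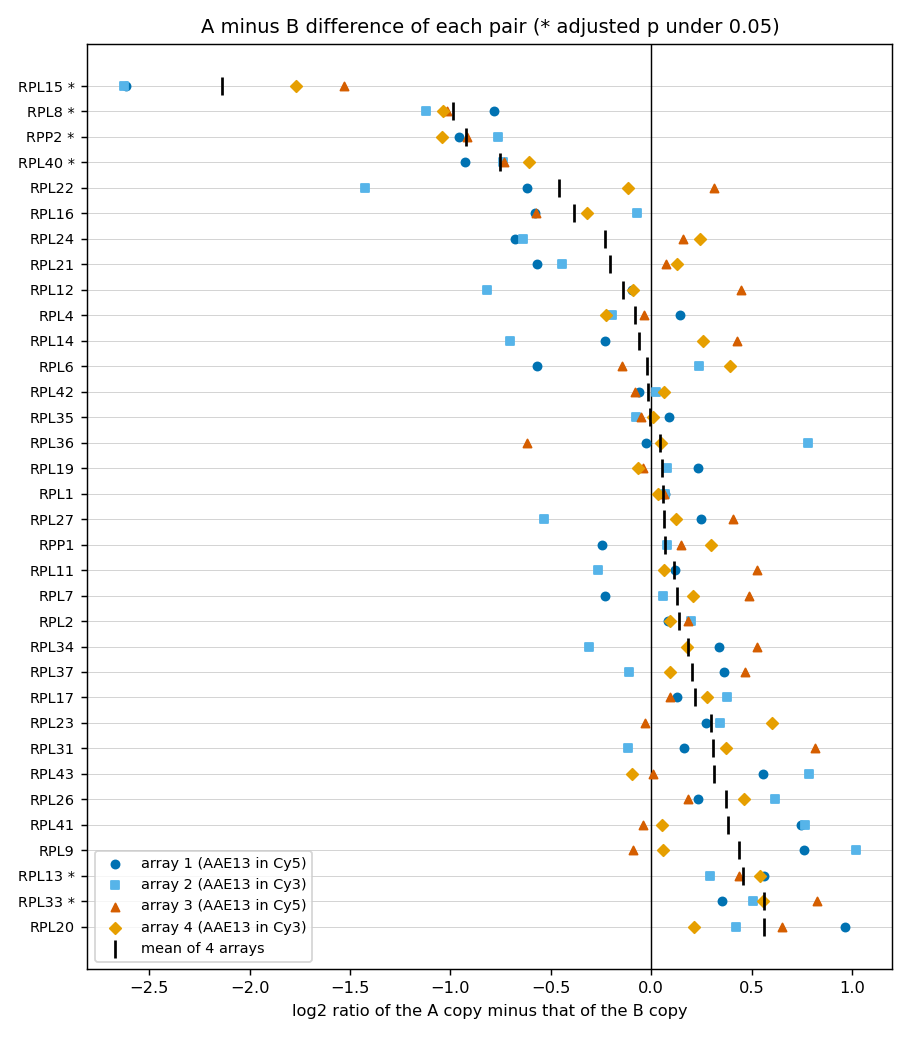
Difference between the log2 ratios of the A and B copies for 34 large subunit pairs, with 1 marker per array, a black bar at the mean of 4 arrays, and an asterisk where limma's adjusted p over 60 pairs is under 0.05. RPL15 stands at -2.14, RPL8, RPP2 and RPL40 lie between -0.99 and -0.75, and RPL33 and RPL13 are at 0.56 and 0.46.

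Among the other 28 pairs RPL20 had the largest mean difference, at 0.96, 0.42, 0.65 and 0.21 on arrays 1 to 4 (mean 0.56 ± 0.32; SD, n = 4; limma adjusted p = 0.0601; 0.043 with a dye term). In 10 of the 34 pairs the mean difference was below 0.1 in size, which does not show that the copies changed alike. The spread within these 10 was uneven. RPL35 differed by 0.09, -0.07, -0.05 and 0.01 on arrays 1 to 4 and RPL42 by -0.06, 0.02, -0.08 and 0.06, so that the copies gave nearly the same value on each array. RPL36 differed by -0.03, 0.78, -0.62 and 0.05, with the same mean difference near 0 but an SD of 0.57. RPL42A and RPL42B both fell (means -0.81 and -0.79), as did RPL12A and RPL12B. Neither RPL42 copy was called with a dye term or without array 1, 2 or 4. With the arrays not centred RPL42A and RPL42B were at -0.20 and -0.19 and did not pass (limma adjusted p = 0.754 and 0.773). In 11 pairs the B copy fell while the A copy did not pass, and in 2 the A copy fell while the B copy did not pass. In 1, RPL15, the A copy fell and the B copy rose, in 2 both fell, and in 18 neither passed. A call for 1 copy alone does not show that the copies differ. Among the 11 pairs only RPL13 and RPL33 had a called difference. Probe sequences were not used here, so it is unknown how far each probe tells its gene from the other copy, and the part of cross-hybridisation in these values was not tested.

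**Figure D4:**
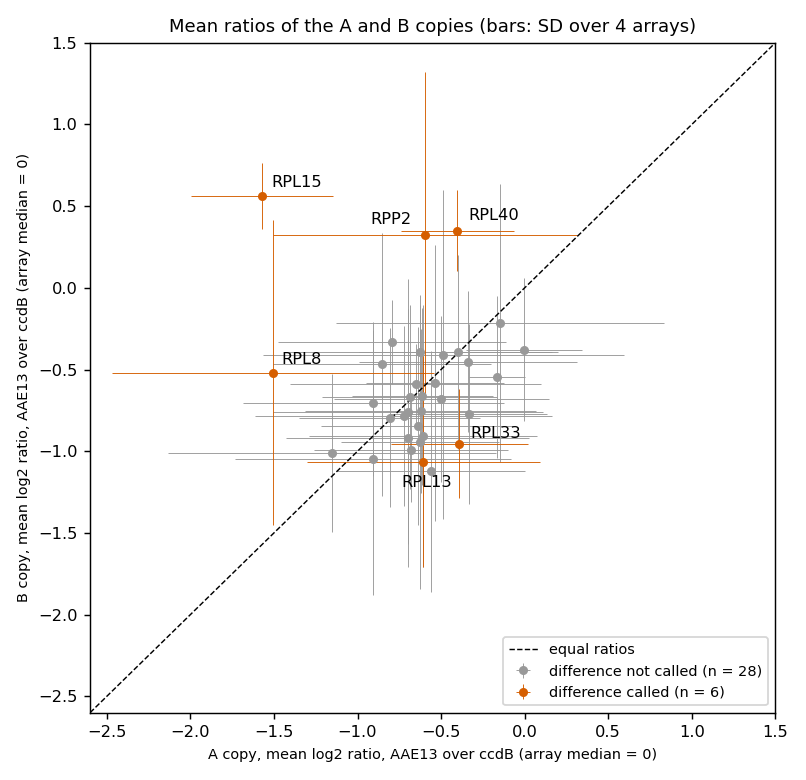
Mean log2 ratio of AAE13 over ccdB of the A copy (horizontal) and of the B copy (vertical) for 34 pairs, with bars of 1 SD over 4 arrays and a dashed line of equal ratios. The 6 pairs with a called difference are orange: RPL15, RPL8, RPP2 and RPL40 lie above the line and RPL13 and RPL33 below it.

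RPL13A and RPP1A are adjacent in the reference annotation, with means of -0.61 and -0.15, and RPL24A and RPL30 are adjacent, with means of -0.62 and -0.59. None of these 4 genes passed, and their differences were not tested. A few members ran against the common order of the arrays. RPL18B was at -0.015, -0.46, -0.89 and -0.76 on arrays 1 to 4 and RPL9A at 0.33, -0.51, -0.40 and -0.76, so that both were highest on array 1. RPL22B, likewise highest on array 1, was at 0.04, -0.36, -0.54 and -0.47. RPL18B, RPL9A and RPL22B did not pass.

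The small subunit gave similar values. Of 55 small subunit genes 20 fell, 0 rose and 35 did not pass, with a median of -0.74, against -0.63 for the large subunit. Those that fell are 36.4% of the 55, beside 11.8% of all named genes called lower and 13% called higher. Their medians were -1.06, -1.41, -0.25 and -0.28 on arrays 1 to 4, in the same order over the arrays as the large subunit's. The difference between the subunits was not tested. With the arrays not centred 0 of the 55 were called and their median was -0.13, and the falls numbered 2, 8, 31 and 3 without arrays 1, 2, 3 and 4, where 6.39%, 8.99%, 13.2% and 4.62% of all genes were called lower.

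Among regulators of ribosomal protein genes, 14 of 16 listed were measured; 1 rose, 1 fell and 12 did not pass. That is 7.14% in each direction, below the 13% of all named genes called higher and the 11.8% called lower. HMO1, a high mobility group protein that binds many ribosomal protein promoters, rose, at 0.60, 1.32, 0.76 and 1.38 on arrays 1 to 4 (mean 1.01 ± 0.39; SD, n = 4; limma adjusted p = 0.0107), and the call was lost without array 4 (adjusted p = 0.0612). UTP22, a ribosome assembly factor that also binds Ifh1, fell, at -1.10, -1.76, -1.002 and -1.51 (mean -1.34 ± 0.35; SD, n = 4; limma adjusted p = 0.00304), and did not pass with the arrays not centred (-0.74; limma adjusted p = 0.207). The factors RAP1 (0.20 ± 0.11), IFH1 (0.18 ± 0.59) and SFP1 (0.29 ± 0.12) had means close to 0, and FHL1 had -0.55 ± 0.47 (SD, n = 4). None of these passed. IFH1 was uneven, at -0.25, 0.24, -0.27 and 0.99 on arrays 1 to 4. FHL1 was at -0.10, -0.20, -0.91 and -0.99.

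Factors that assemble, escort and export the large subunit were on the low side too. Of 50 listed 42 were measured, of which 11 fell (26.2%), 0 rose and 31 did not pass, against 11.8% of all named genes called lower, and the median was -0.41; with the arrays not centred 0 were called and the median was 0.20. NOG1, a GTPase of assembly, was at -1.11, -2.33, -0.20 and -0.97 on arrays 1 to 4 (mean -1.16 ± 0.88; SD, n = 4; limma adjusted p = 0.0363). RRB1, the chaperone of the RPL3 protein, was at -1.35, -1.56, -0.71 and -0.48 (mean -1.03 ± 0.51; SD, n = 4; adjusted p = 0.0156, limma; 0.0631 without array 1). MRT4, which holds the place of RPP0 on the immature particle, averaged -0.96 ± 0.39, and RPF2, which helps to load RPL5 and RPL11, averaged -0.92 ± 0.72 (SD, n = 4; limma adjusted p = 0.0126 and 0.047). RPF2 was lower on arrays 3 and 4 (-1.52 and -1.56) than on arrays 1 and 2 (-0.41 and -0.19), the opposite order to most members, and lost the call without array 1, 3 or 4 (limma adjusted p from 0.0595 to 0.182). NOG1 lost it without array 1, 2 or 4 (limma adjusted p from 0.0571 to 0.106). The count of 11 was 4, 5, 10 and 3 without arrays 1, 2, 3 and 4. These are 9.52%, 11.9%, 23.8% and 7.14% of the 42, where 6.39%, 8.99%, 13.2% and 4.62% of all genes were called lower.

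Of 19 listed enzymes and chaperones that act on large subunit proteins or on chains leaving the tunnel, 12 were measured; 1 rose, 1 fell and 10 did not pass. That is 8.33% in each direction, below the 13% of all named genes called higher and the 11.8% called lower. RKM4, a lysine methyltransferase whose substrate is the RPL42 protein, rose on every array, at 0.85, 0.82, 1.48 and 1.48 (mean 1.16 ± 0.37; SD, n = 4; limma adjusted p = 0.00573). RPL42A and RPL42B fell, though neither was called with a dye term or without array 1, 2 or 4. SSB2, a chaperone at the tunnel exit, was at -1.61, -2.65, -0.01 and -0.85 (mean -1.28 ± 1.12; SD, n = 4; limma adjusted p = 0.0482) and lost the call without array 1, 2 or 4 (adjusted p from 0.0788 to 0.132). Its near-identical copy SSB1, at -1.05 ± 1.34 (SD, n = 4), did not pass.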

How the data were processed

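The labels describe 4 biological replicates per strain, oligo-dT primed cDNA and indirect Alexa dye labelling. The authors deposited log2 ratios for 6256 probes, with 4 values missing; for normalization, software and direction the labels were silent (not given in the sources used here), and base 2 was inferred from the values. GEO's platform annotation gave names to 4075 probes; 125 older symbols were updated through the RefSeq table of assembly R64. Each member's probe stood among probes of neighbouring genes. Each array was centred on its median, probes of a gene were averaged, and every gene with at least 3 arrays entered an intercept-only limma model (version 3.58.1, R version 4.3.3; lmFit, eBayes). Its two-sided p-values were adjusted over 4072 genes by the Benjamini-Hochberg method. Pair differences were fitted in the same way over 60 pairs. Both fits were tested on simulated data with errors drawn independently for each gene and array. Most members shared an order over the arrays, and the simulation does not cover such shared shifts. SD is over arrays.

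Members and lists were chosen with earlier results of these data known, and the role groups (catalytic centre, tunnel exit, stalk) were drawn up after the values were seen. Genes were named by a rule: among called genes of 1 sign on every array the 8 largest falls and up to 4 rises, then the 4 lowest and 4 highest means, pairs with a called difference, single-copy and stalk genes, and up to 4 called genes per list; the remaining names were added after their values were seen. Alternatives tried were ratios read as Cy5 over Cy3, a dye term, no centring, scaling, other filters, other moderation and leaving out each array. Figures used Python 3.11.15 and matplotlib 3.10.9.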

Additional observations from a re-analysis of the deposited data

Results flagged for a closer look

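Of 114 results with 4 arrays each (80 genes and 34 pair differences), 1 had an array set apart from the other 3. The RPL1 pair difference was 0.0325 on array 4, against 0.07 on each of the other 3 arrays, a gap that is large only beside the very narrow range of that pair. Chance sets an array apart in about 1 of 20 such groups.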

How the results depend on the processing

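The 19 falls and 1 rise kept their number within 1.5 times with a dye term, scaled arrays, unnamed probes kept and robust moderation. With 1 probe per gene, or with only genes measured on all 4 arrays, the numbers were the same. Neither of these last settings could change a member's values, since each member has 1 probe and was measured on every array. With the dye term, however, the falls were 16.25% of the members, near the 15.1% of all named genes called lower. The falls numbered 0 with ratios read as Cy5 over Cy3, 0 without centring, 0 with an unmoderated test and 2 at an adjusted p under 0.01, and 3 to 40 when 1 array was left out. The rises numbered 0 with ratios read as Cy5 over Cy3, 0 with an unmoderated test, 0 at an adjusted p under 0.01, and 0 to 1 when 1 array was left out. The members' median moved to 0.14 as Cy5 over Cy3 and to -0.018 without centring. The 6 called pairs numbered 0 as Cy5 over Cy3 and 4 to 5 without 1 array. Read as Cy5 over Cy3, the sign turned for RPL8A (0.46), RPL5 (0.17), RPL12A (0.45), RPL13B (0.19), RPL2B (0.44), RPL12B (0.14), RPL15B (-0.11), RPL8B (0.37), RPP2A (0.099), RPL13A (0.24), RPL32 (0.33), RPL29 (0.078), RPL28 (0.33), RPL39 (0.14), RPL10 (0.36), RPL25 (0.075), RPL3 (0.52), RPP1A (0.13), RPP1B (0.25) and RPP0 (0.58), and for the pair differences of RPL15 (0.063) and RPL8 (0.089). Without centring it turned for RPL26A (0.60), RPL8B (0.088), RPP2A (0.010), RPL40A (0.21), RPL33A (0.22), RPL13A (0.0021), RPL29 (0.15), RPL30 (0.020), RPL28 (0.10), RPL39 (0.14), RPP1A (0.46), RPP1B (0.39) and RPP0 (0.068). With scaled arrays it turned for RPL26A (0.0072). When 1 array was left out, RPL26A ranged from -0.13 to 0.11, RPP1A from -0.44 to 0.20 and RPP1B from -0.48 to 0.14. The causes were not tested. Each ratio already pairs 1 AAE13 culture with 1 ccdB culture, so the fit is itself the paired analysis. The planned promoter motif and protein identity comparisons were not run, since no sequences were used here. Signal over background is unknown, so its limit on these values was not measured.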
